A study of Mus with 9 samples.

Results

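Interleukins and interleukin receptors were examined in the hippocampus of senescence-accelerated mice. The members are the probe sets whose gene symbol starts with Il and a digit, which were 85 of the 22206 probe sets on the Clariom S Mouse array and name 82 genes. By role, 36 probe sets belong to ligands, 43 to 40 receptor genes, 5 to inhibitors, and 1 is shared by the enzyme gene Il4i1 and its neighbours Nup62 and Gm21948. Every gene has a single probe set except Il11ra2, which has 4.

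The SAMR1 group is the senescence-resistant strain on vehicle, the SAMP8 group the senescence-prone strain on vehicle, and the TG-treated SAMP8 group the same strain given trigonelline (TG), a plant alkaloid, by mouth. TG was given at 5 mg/kg per day for 30 days and through 8 days of water maze testing. The mice were males, given as 16 weeks old. In the methods acclimatization, dosing and testing follow, so by that account the tissue came from older mice. The sample records list 3 arrays of hippocampal RNA per group, 9 in all, and the methods also give 3 samples per group. The series text speaks of duplicate samples instead, so how many arrays enter each average rests on the records and the methods. SAMP8 and SAMR1 are separate inbred strains studied at a single age, so strain and ageing cannot be told apart here. The vehicle is saline in the sample records and water in the methods. The records also carry a description of a treated macrophage line, which contradicts the labelled tissue. All 10 of the hippocampal neuron markers checked lay above background in every group, with medians of 12.36, 12.68 and 12.32 in SAMR1, SAMP8 and TG-treated SAMP8.

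The deposited tables give 1 log2 signal per probe set and group, the authors' average over the group's arrays. These averages carry no spread, so the differences below were not set against the variation between mice. The p-values that the authors deposited for their own comparisons were left out by choice, and none is given here. In whole tissue, a lower signal from fewer cells of a type cannot be told apart from less RNA per cell.

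Interleukins are secreted proteins through which immune cells, and in the brain also glia, endothelial cells and neurons, signal to each other. They act at very low amounts through receptors built of several chains, some of which serve many ligands. Il6st (gp130) is the shared signalling chain of the interleukin 6 family, Il1rap the shared accessory chain of the interleukin 1 family, and Il2rg the common gamma chain of lymphocyte growth factors. Il1rapl1 and Il1rapl2 resemble interleukin receptors in sequence, but Il1rapl1 is known as an adhesion protein of the synapse. In the healthy brain most interleukin ligands are barely transcribed, while Il33, Il18, Il34 and Il16 are known to be made by resident cells.

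To state which members lie above background signal, the receptors of the nose (olfactory and vomeronasal receptors, 1458 probe sets) served as genes without a role in the hippocampus. A member was called above background in a group when its average exceeded the 95th percentile of the nose receptors in that group. This limit was 5.95 in SAMR1, 5.55 in SAMP8 and 5.61 with TG. The medians of the nose receptors were 4.20, 4.07 and 4.16 in the same order, so this set was itself lowest in SAMP8. The limits themselves lay further apart than these medians, so a member can pass in the SAMP8 groups and miss the higher limit of SAMR1 at nearly the same signal.

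Of the 85 members, 26 were above background in at least 1 group, 20 in all 3 groups and 59 in none. Among all probe sets, 57.6% were above background in at least 1 group and 50.7% in all 3. By group, 20 members passed in SAMR1, 26 in SAMP8 and 25 with TG. The shares over all probe sets were 51.7%, 55.7% and 55.6%. Receptors passed more often than ligands, with 18 of 43 receptor probe sets (41.9%) and 6 of 36 ligands (16.7%) above background in at least 1 group. The median level of the receptors was 5.28 in SAMR1, 5.26 in SAMP8 and 5.27 with TG, and that of the ligands 4.34, 4.08 and 4.24. Both medians lie under the background limits. Probe sets differ in how strongly they bind, so a higher signal of one gene than of another is not a higher number of transcripts. Among the members above background the order of the medians turned. Of the 6 ligands there, 4 were above 7 in every group, while Il17d passed in SAMR1 at 5.98, next to the limit of 5.95.

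**Figure D1:**
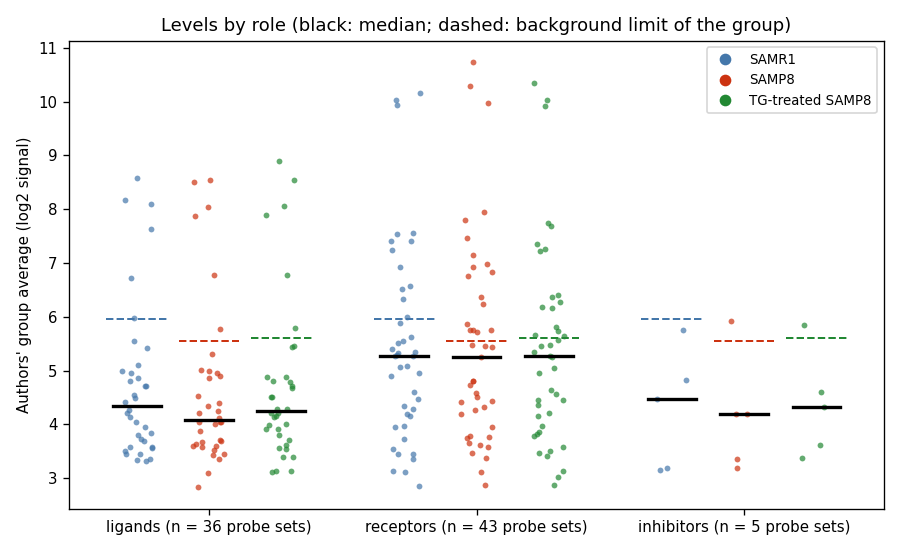
Authors' group averages (log2 signal, vertical axis) of the 36 ligand, 43 receptor and 5 inhibitor probe sets, 1 point per probe set, in the 3 groups. Black bars are medians and dashed lines the background limits of 5.95, 5.55 and 5.61. Most ligands lie below the limit in every group.

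The 6 ligands above background were so in all 3 groups. Il18, a cytokine of the interleukin 1 family that is released after cleavage by caspase-1, stood at 8.09 in SAMR1, 8.55 in SAMP8 and 8.90 with TG. Il33, a nuclear alarmin of glia, was at 8.58, 8.51 and 8.55. The 3 averages of Il33 span less than 0.1, whereas Il18 was lowest in SAMR1 and highest with TG. Il16, a ligand of the CD4 protein whose precursor also occurs in neurons, had averages of 8.17, 8.05 and 8.06. Il34, a neuron-derived ligand of the microglial receptor Csf1r, was at 7.64, 7.88 and 7.89. Il17b and Il17d, less studied relatives of interleukin 17, had averages of 6.73, 6.77 and 6.78 and of 5.98, 5.77 and 5.79. Apart from Il18, these ligands differed by at most 0.25 between any of the groups.

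The other 30 ligands were below background in every group. Il6, an inflammatory cytokine, stood at 3.45 in SAMR1, 3.71 in SAMP8 and 3.54 with TG, which is below the median of the nose receptors in each group. Il1b, the main secreted form of interleukin 1, was at 5.00, 5.00 and 4.81. Its partner Il1a had averages of 4.04, 3.69 and 4.13. The averages of Il4, a regulator of alternative macrophage activation, were 3.36, 3.10 and 3.11. Il10, an anti-inflammatory cytokine, lay nearer the limit at 5.55, 5.01 and 5.45. At these signals the probe sets could not be told from those of the nose receptors.

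Among receptors, 13 probe sets were above background in all 3 groups. The highest signals were those of Il6st (10.16, 10.74 and 10.35 in SAMR1, SAMP8 and TG-treated SAMP8), Il1rap (10.03, 10.30 and 10.03) and Il1rapl1 (9.94, 9.97 and 9.92). Il1rapl1 thus hardly varied, while Il6st and Il1rap were highest in SAMP8. Il1r1, the signalling receptor for Il1a and Il1b, had averages of 7.54, 7.95 and 7.36. Il1rapl2, a relative of Il1rapl1 that also lies on chromosome X, was at 7.40, 7.80 and 7.74. Il15ra, which presents interleukin 15 to neighbouring cells, gave 7.56, 7.46 and 7.23.

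Il17ra, the common chain of interleukin 17 receptors, stood at 6.92, 6.98 and 6.40. Il10rb, shared by receptors for interleukin 10, interleukin 22 and type III interferons, was at 6.52, 6.92 and 6.36. Il13ra1, which pairs with Il4ra to bind interleukin 13 or interleukin 4, had averages of 6.57, 6.83 and 6.28. The averages of Il3ra, the specific chain for interleukin 3, were 6.33, 6.36 and 5.81. In each of these 4 receptors the TG-treated group had the lowest average.

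The receptors of interleukin 11 are encoded by near-identical copies on chromosome 4. Il11ra1 (41760443 to 41769473 in GRCm38) had averages of 7.41 in SAMR1, 7.14 in SAMP8 and 7.68 with TG. The 4 probe sets that name Il11ra2 (42655275 to 42665763) did not run together. The one shared with Gm2002 stood at 7.24, 6.76 and 7.26, lowest in SAMP8 like Il11ra1. The probe set shared with both Gm13305 and Gm2002 was at 6.00, 6.24 and 6.17, and the 2 that name Il11ra2 alone were at 5.63, 5.75 and 5.74 and at 5.55, 5.75 and 5.67. In these 3 probe sets the SAMP8 average was the highest. Because copies can share probes, none of these values can be assigned to a single copy.

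A further 5 receptor probe sets, the 2 of Il11ra2 alone among them, and 1 inhibitor were above background in only some groups, and passing in this way favours a difference. Il10ra, the specific chain of the interleukin 10 receptor and in the brain mainly a microglial gene, had averages of 5.35 in SAMR1, 5.72 in SAMP8 and 6.18 with TG. Il4ra stood at 5.06, 5.86 and 5.65. Both were below the limit in SAMR1 and above it in the SAMP8 groups. Il20rb, a receptor chain for interleukins 19, 20 and 24, was at 5.89, 5.75 and 5.45 and passed in SAMP8 alone, through the lower limit there. The inhibitor was Il18bp, the soluble antagonist of interleukin 18, at 5.75, 5.93 and 5.85. Of the other inhibitors, the interleukin 1 receptor antagonist Il1rn was at 3.15, 3.35 and 3.62, and Il1f5, Il1f10 and Il22ra2 were also below background in every group.

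**Figure D2:**
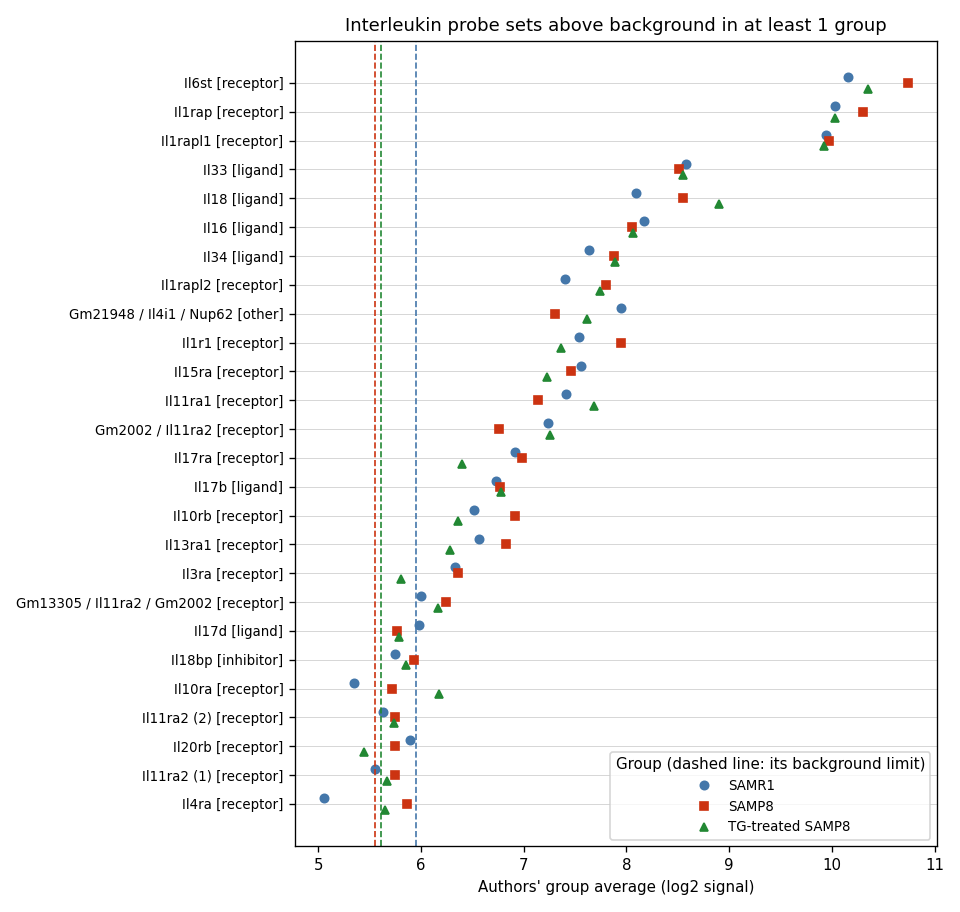
Authors' group averages (log2 signal, horizontal axis) of the 26 members above background in at least 1 group, 1 row per probe set with its role in brackets, for SAMR1 (circles), SAMP8 (squares) and TG-treated SAMP8 (triangles). Dashed lines are the background limits of the groups. Il6st, Il1r1, Il10rb and Il13ra1 have their highest average in SAMP8, and Il18 and Il10ra in TG-treated SAMP8.

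The comparison of SAMP8 with SAMR1 asks how the senescence-prone strain differs from the resistant one. By a difference of at least 1.5-fold (0.585 on the log2 scale), 2 members were higher and 9 lower in SAMP8. Among all probe sets 11.1% differed by as much, 5.0% higher and 6.08% lower, and among the nose receptors 12.8%, of which 1.44% higher and 11.3% lower. The members' shares were 2.35% and 10.6%, close to those of the nose receptors. With each group centred on its median over all probe sets the split was 4 higher and 6 lower, and with each group centred on its nose receptors, an alternative chosen after seeing the data, it was 6 higher and 3 lower. Over all probe sets 6.21% were higher and 4.96% lower with the first centring, and 9.16% and 3.72% with the second. The direction of the excess therefore depended on the centring.

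Of these 11 members, 2 were above background in at least 1 of the groups, 1 higher and 1 lower. They are 7.69% of the 26 members above background there, 3.85% in each direction. Of all 12545 probe sets above background there 13.0% differed by as much, 7.8% higher and 5.22% lower. Il4ra (chromosome 7, 125552271 to 125579474), the shared chain for interleukins 4 and 13, had averages of 5.86 in SAMP8 and 5.06 in SAMR1, a difference of 0.80 or 1.74-fold. Only the SAMP8 average was above its limit. The probe set of Il4i1, Nup62 and Gm21948 was at 7.31 in SAMP8 and 7.95 in SAMR1, lower by 1.56-fold. Il4i1 is an amino acid oxidase of immune cells and Nup62 a nuclear pore protein made by all cells, and the probe set does not separate them. With the groups centred on the nose receptors this probe set was no longer past 1.5-fold. Il6st was just within the limit, with a difference of 0.58, and passed it under both centrings, at 0.63 on the median of all probe sets and 0.71 on that of the nose receptors.

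The other 9 were below background in both groups. Il17f, a ligand of the interleukin 17 receptor, was the only higher one, at 4.34 in SAMP8 and 3.57 in SAMR1. The furthest apart was Il1rl1, the receptor for Il33 known as ST2, with averages of 3.76 in SAMP8 and 4.89 in SAMR1, or 2.19-fold lower. Il23r, the specific chain for interleukin 23, was at 4.42 and 5.28. Il13 stood at 4.00 in SAMP8 and 4.81 in SAMR1. The differences of Il12rb2, Il1f5, Il22, Il20 and Il2ra ran from -0.71 to -0.59. Il22, Il20 and Il2ra were no longer past 1.5-fold under either centring, and Il12rb2 and Il1f5 not with the nose receptor centring. Over the 59 members below background in every group, 25 were higher and 33 lower in SAMP8 with a median difference of -0.08. Over the 9415 probe sets of all kinds below background the median was -0.09, with 35.0% higher and 63.3% lower.

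The receptors above background in all 3 groups leaned the other way. In 10 of the 13 the SAMP8 average was the higher, with a median difference of 0.24, and in 3 the lower. Among the 11256 probe sets above background in all 3 groups 60.4% were higher in SAMP8, with a median of 0.08. The receptor differences ran from -0.48 to 0.58, so none reached 1.5-fold on the deposited scale, though Il6st did under either centring. Ligands above background were divided evenly, 3 higher and 3 lower, from -0.21 for Il17d to 0.46 for Il18.

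**Figure D3:**
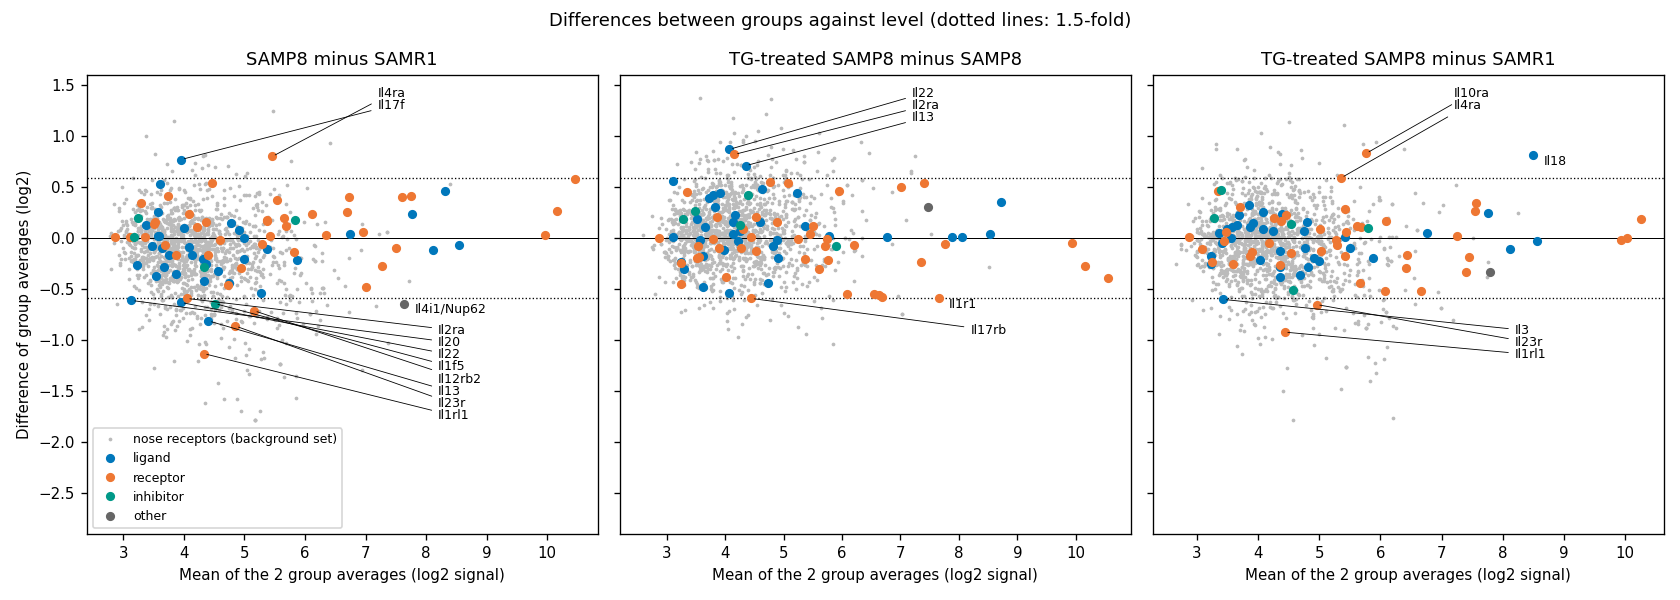
Difference of the authors' group averages (log2, vertical axis) against the mean of the 2 averages (log2 signal, horizontal axis) for the 85 members, coloured by role, and the 1458 nose receptors (grey) in the 3 comparisons. Dotted lines mark 1.5-fold and the members past it are named. Most named members lie at the low signals where the nose receptors scatter as widely.

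The comparison of TG-treated with vehicle-treated SAMP8 asks what TG changed. It uses the same SAMP8 arrays as the strain comparison, with opposite sign, so a high or low SAMP8 average enters both. At 1.5-fold, 3 members were higher and 2 lower with TG, which is 3.53% and 2.35% of the members. Over all probe sets 8.21% differed by as much, 4.48% higher and 3.74% lower, and over the nose receptors 8.5%, of which 6.1% higher and 2.4% lower. Of the 26 members above background in at least 1 of these groups, 0 were higher and 1 lower, against 10.7% of all such probe sets, 5.08% higher and 5.64% lower. With each group centred on its median the split was 3 higher and 4 lower, or 8.24% of the members against 8.27% of all probe sets. Centred on the nose receptors it was 3 higher and 7 lower, or 11.8% against 9.07%. The members' share thus lay below, beside or above that of all probe sets, depending on the centring.

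The 3 higher members were all below background in every group. Il22, a cytokine that acts on epithelia, stood at 4.51 with TG and 3.64 without, a difference of 0.87. Il2ra (chromosome 2, 11642792 to 11693194), the high-affinity chain of the interleukin 2 receptor that marks activated and regulatory T cells, was at 4.57 and 3.75, higher by 1.77-fold. Il13 was at 4.71 and 4.00. These same 3 genes were lower in SAMP8 than in SAMR1, at 3.64 against 4.27 for Il22, 3.75 against 4.34 for Il2ra and 4.00 against 4.81 for Il13. Of these strain differences only that of Il13 stayed past 1.5-fold under both centrings. The differences with TG stayed past it in all 3 genes, at 0.78 for Il22, 0.73 for Il2ra and 0.62 for Il13 with the nose receptor centring. The nose receptors had a median difference of -0.11 between SAMP8 and SAMR1 and of 0.06 between TG-treated and vehicle-treated SAMP8. Beyond these centrings, the part of this shift in the low members was not tested.

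Of the 2 lower members, Il1r1 (chromosome 1, 40222480 to 40316201) was above background, at 7.36 with TG and 7.95 without, lower by 1.51-fold. Il17rb, the receptor chain for Il17b and Il25, was below background at 4.15 and 4.74. Several receptors lay just under the limit. The difference was -0.58 for Il17ra, -0.56 for Il10rb and -0.55 for both Il13ra1 and Il3ra, all of them above background. Centred on the median of all probe sets, Il17ra and Il10rb passed 1.5-fold at -0.61 and -0.59. Centred on the nose receptors, all 4 passed, at -0.67 for Il17ra, -0.65 for Il10rb and -0.64 for Il13ra1 and Il3ra. In the opposite direction, Il11ra1 was higher by 0.54 and Il10ra by 0.46.

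With TG, 11 of the 13 receptors above background in all groups had the lower average, with a median difference of -0.27, and the exceptions were Il11ra1 and the probe set of Gm2002 and Il11ra2. Among all probe sets above background 54.8% were lower, with a median of -0.04. All 6 ligands above background had a higher average with TG, but in 5 of them by no more than 0.04, and only Il18 differed more, by 0.35. The median over these ligands was 0.02. Over all 43 receptor probe sets the median difference with TG was -0.08, with 14 higher and 28 lower, and over all 36 ligands 0.04, with 24 higher and 12 lower. Between SAMP8 and SAMR1 the medians were 0.06 over the receptors, with 28 higher and 15 lower, and -0.12 over the ligands, with 12 higher and 23 lower. The gap between receptors and ligands was thus smaller over all members than over those above background, and it was not tested.

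Markers of other cell types were read beside these receptors. All 5 endothelial markers (Cldn5, Pecam1, Cdh5, Flt1 and Slco1a4) were above background, all 5 were higher in SAMP8 than in SAMR1 with a median difference of 0.52, and all 5 were lower with TG with a median of -0.35. Their summed linear signal was 2831 in SAMR1, 4153 in SAMP8 and 2413 with TG. Slco1a4, an organic anion transporter of brain vessels, made up most of this sum, at 11.06, 11.62 and 10.62. Il1r1 is known to be strongly expressed by brain endothelium. The part of endothelial cells in the receptor values was not tested. The 6 astrocyte markers were all higher in SAMP8, with a median of 0.32, and 4 of them were lower with TG. Among the 10 neuron markers 8 were higher in SAMP8 and 1 lower, with a median difference of 0.18, and 4 were higher and 5 lower with TG. Prox1, a transcription factor of dentate granule cells, was at 11.26 in SAMR1, 11.85 in SAMP8 and 11.00 with TG, and Zbtb20, a transcription factor of hippocampal neurons, at 13.26, 13.51 and 12.86. Both were lower by more than 1.5-fold with TG, and the part of neurons in the receptor values was not tested. Of 10 microglial markers, 5 were above background in all 3 groups and 3 in none. In SAMP8 4 of the 10 were higher and 6 lower than in SAMR1. Past 1.5-fold, 3 were higher, Aif1 by 1.51, P2ry12 by 0.86 and Itgam by 0.70, all above background in SAMP8. The 2 lower, C1qa and Trem2, with differences of -0.61 and -0.70, were below background in every group. With TG 5 microglial markers were higher and 5 lower, and only C1qa, by 0.67, was past 1.5-fold.

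The members that mark lymphocytes were at background, as were most other lymphocyte genes. The T cell receptor components Cd3e, Cd3d and Cd3g had averages from 3.26 to 4.04 over the 3 groups, and the chains Il2rb and Il2rg from 2.86 to 3.95. Of 7 T and NK cell markers, 5 were below background in every group, and Cd4, at 6.43, 6.13 and 6.14, was the only marker above it in all 3. Cd2, an adhesion protein of T and NK cells, was at 5.67, 5.77 and 6.16 and passed the limit in both SAMP8 groups. All 4 B cell markers were below background.

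The comparison of TG-treated SAMP8 with SAMR1 asks which genes still differed from the resistant strain after treatment, and it does not involve the vehicle SAMP8 arrays. At 1.5-fold 3 members were higher (3.53%) and 3 lower (3.53%), against 5.62% and 4.83% of all probe sets (10.5% together) and 2.26% and 7.41% of the nose receptors (9.67% together). The 3 higher members were all above background in the TG-treated group, and no lower one was in either group. Of these 2 groups, Il10ra and Il4ra passed only with TG, where they were higher. The limit was also lower with TG (5.61) than in SAMR1 (5.95), which favours members higher with TG. Of the 25 members above background in at least 1 of these groups, 12.0% were higher and 0 lower. Of all such probe sets 13.8% differed by as much, 8.44% higher and 5.39% lower. Il10ra stood at 6.18 in TG-treated SAMP8 and 5.35 in SAMR1, higher by 1.78-fold. Il18 was at 8.90 and 8.09, a difference of 0.81 or 1.75-fold. Il4ra was at 5.65 and 5.06, a difference of 0.59. Among these, Il18 was the only one above background in both groups. In Il18 and Il10ra the SAMP8 average lay between the others, and in Il4ra it was the highest.

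The 3 lower members were below background: Il1rl1 at 3.97 in TG-treated SAMP8 and 4.89 in SAMR1, Il23r at 4.63 and 5.28, and Il3 at 3.13 and 3.73. Il1rl1 and Il23r were also lower in vehicle-treated SAMP8, so both SAMP8 groups stood below SAMR1 in these probe sets. Centring on either median left Il3 short of 1.5-fold and kept the other 5 members. Microglial genes did not share a direction here, with 5 of the 10 markers higher and 5 lower, among them Aif1 with a difference of 1.07 and Cx3cr1 with one of -0.62. Of the 6 astrocyte markers 5 were higher in TG-treated SAMP8 than in SAMR1, and Gfap and Aldoc were past 1.5-fold, with differences of 0.84 and 0.98. The choroid plexus marker Ttr, which encodes transthyretin, was at 8.45, 9.33 and 10.05 in SAMR1, SAMP8 and TG-treated SAMP8. This is the same order of groups as for Il18 and Il10ra, and none of the other choroid plexus markers had it. The order was not particular to Ttr. Csf1r of microglia (9.13, 9.22 and 9.52), Aldoc of astrocytes (16.3, 16.76 and 17.28) and Rbfox3 of neurons (11.45, 11.56 and 11.77) also had it. Other markers of these lists did not. Of all 6 choroid plexus markers, 2 were higher and 4 lower in TG-treated SAMP8 than in SAMR1. The part of microglia, astrocytes, neurons and choroid plexus in the values of Il18, Il10ra and Il4ra was not tested.

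**Figure D4:**
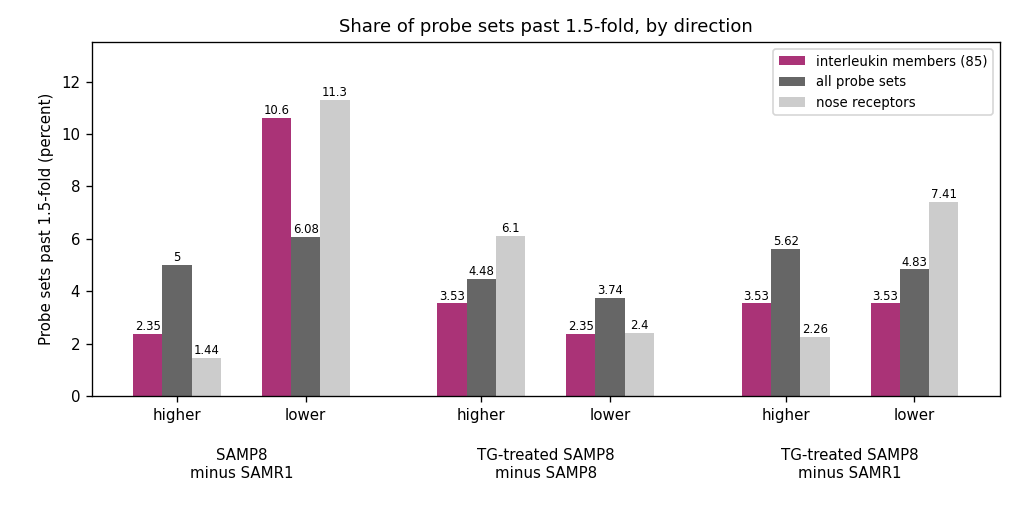
Percent of probe sets (vertical axis) at least 1.5-fold higher or lower in each of the 3 comparisons, for the 85 interleukin members, all 22206 probe sets and the 1458 nose receptors. Between SAMP8 and SAMR1, the share of members that were lower (10.6%) lies beside that of the nose receptors (11.3%).

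By family, the 5 receptor chains of interleukin 17 all had a higher average in SAMP8 than in SAMR1, with a median difference of 0.18, and 4 of them a lower one with TG, with a median of -0.38. Of these chains only Il17ra was above background. Of the 6 ligands of this family, 2 were higher and 4 lower in SAMP8, and 5 were higher and 1 lower with TG. The 5 ligands of the interleukin 10 family (Il10, Il19, Il20, Il22 and Il24) were below background throughout, 4 of them lower in SAMP8 and all 5 higher with TG, with medians of -0.54 and 0.44. Of all probe sets below background, 63.3% were lower in SAMP8 and 57.6% higher with TG. The 4 ligands of the interleukin 6 family (Il6, Il11, Il27 and Il31), also below background, went the other way, with 3 higher in SAMP8 and all 4 lower with TG. Their medians were smaller, at 0.14 and -0.10. With TG, Il11 and Il27 differed by only -0.02 and -0.03, Il6 by -0.17 and Il31 by -0.48. In the interleukin 1 family, 6 of 9 receptors were higher in SAMP8, and 4 of 9 were higher with TG.

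Ligands were also set beside the chains of their receptors, in 29 ligands with textbook receptors. In 2 of them the ligand and its receptor were above background in all 3 groups, Il34 with Csf1r and Il16 with Cd4. Csf1r, the growth factor receptor of microglia, was at 9.13, 9.22 and 9.52. Il33 and Il18 were above background while a specific chain of their receptors was not: Il1rl1 for Il33, and both Il18r1 and Il18rap for Il18. Il17b, which is not among the 29, was also above background while its receptor chain Il17rb was not. The reverse held for Il1a, Il1b and Il11, whose receptor chains (Il1r1 with Il1rap, and Il11ra1 with Il6st) were above background and whose own probe sets were not. For Il11 this rests on the Il11ra1 probe set, whose signal may include the copies of that gene. For Il6, the shared chain Il6st was above background, and the specific chain Il6ra, at 4.61, 4.59 and 4.46, was not. In 22 of the 29, Il6 among them, the ligand was below background and at least 1 chain was not above it in every group.

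A list of 45 other genes of the pathway held kinases, adaptors, transcription factors and inhibitors that act after the receptors. It also held Casp1 and Nlrp3, shared or related receptor chains (Csf2rb, Csf2rb2, Lifr, Osmr, Cntfr, Crlf2, Csf1r and Sigirr) and the cytokine subunit Ebi3. At 1.5-fold, 1 was higher and 1 lower in SAMP8 than in SAMR1, 1 higher and 2 lower with TG, and 2 higher and 0 lower in TG-treated SAMP8 than in SAMR1. Over all probe sets 11.1%, 8.21% and 10.5% were past this limit in the same comparisons, which are larger shares than 2, 3 and 2 of 45. Of the 24 genes of Janus kinases, STAT factors, their inhibitors, Ebi3 and the chains other than Sigirr, 19 had a higher average in SAMP8 with a median difference of 0.15, and 15 a lower one with TG with a median of -0.05. Over all probe sets 49.5% were higher in SAMP8 and 48.3% lower with TG. Over those above background in all 3 groups, 13 of the 24 genes among them, the shares were 60.4% and 54.8%. Socs2, a feedback inhibitor of cytokine and growth hormone signalling, was the one past the limit among the 24 genes. It was at 9.91 in SAMR1, 9.29 in SAMP8 and 10.07 with TG. Its average was lowest in SAMP8, opposite to Stat3, the main transcription factor downstream of Il6st, at 6.98, 7.36 and 7.09. Stat6, which carries the signal of Il4ra and Il13ra1, was at 5.70, 6.18 and 5.77.

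Of the 21 genes listed for signalling by the interleukin 1 and interleukin 17 receptors, 14 had a lower average with TG. The share was 48.3% over all probe sets and 54.8% over those above background in all 3 groups. Ikbkb, the kinase that releases NF-kB, was at 6.67, 7.28 and 6.22, and Traf6, the ubiquitin ligase shared by both receptor families, at 7.28, 7.85 and 7.16. These were the 2 genes of the list lower by more than 1.5-fold with TG. Casp1, the protease that matures Il1b and Il18, stood at 5.19, 5.75 and 5.22, and passed the background limit in SAMP8 alone. Irak2 and Traf3 were the 2 higher in TG-treated SAMP8 than in SAMR1, by 0.62 and 0.70. Myd88, the first adaptor of the interleukin 1 receptors, was below background at 5.36, 5.33 and 5.27.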

How the data were processed

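Total RNA of the hippocampus was hybridised to Clariom S Mouse arrays. The authors normalised the CEL files by SST-RMA in the Transcriptome Analysis Console (version 4.0.1 in the series text) and deposited, per the file headers, group averages as log2 signal with the mm10 annotation. The tables also hold the authors' fold changes, p-values and adjusted p-values of their own comparisons, which were not used. The SAMP8 averages were identical in both tables, so all 3 groups were compared directly. Values are given to 2 decimals. With 3 arrays a group, precision is limited by their number.

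Differences are those of the averages. No test across mice was run, because values per array were not analysed here. The 1.5-fold limit was set against 1.3 and 2, the 95th percentile of the nose receptors against the 90th and the 99th, and centring and single-symbol probe sets were tried. The members, lists, limits and named genes (those above background or past 1.5-fold, and Il6, Il6st and Il2ra) were chosen with earlier results of these data known, and the ligand and receptor pairs, and the few genes named outside that rule, after the values were seen. The counting was tested on simulated data. Marker lists covered neurons, microglia, astrocytes, oligodendrocytes, endothelium, meninges, choroid plexus, lymphocytes, neutrophils and mast cells. All 85 probe sets matched a gene of the RefSeq annotation of GRCm38, which gave the positions. Python 3.11.15, numpy 2.4.6 and pandas 2.3.3 were used.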

Additional observations from a re-analysis of the deposited data

How the results depend on the processing

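With a fold limit of 1.3 in place of 1.5, 24 members differed between SAMP8 and SAMR1, 28 between TG-treated and vehicle-treated SAMP8 and 13 between TG-treated SAMP8 and SAMR1. These are 28.2%, 32.9% and 15.3% of the members, against 26.6%, 23.3% and 26.3% of all probe sets. With a limit of 2 these counts were 1, 0 and 0, and the 1 was Il1rl1, against 2.31%, 0.815% and 1.85% of all probe sets. Among members above background in at least 1 of the groups compared, the counts at 1.5-fold were 2, 1 and 3. These are 7.69%, 3.85% and 12.0% of such members, against 13.0%, 10.7% and 13.8% of all such probe sets. The median of the nose receptors was 0.13 lower in SAMP8 than in SAMR1, and centring on it, added after seeing the data, gave 10 members with TG in place of 5, all 5 of the original ones among them. Between SAMP8 and SAMR1 the same centring kept 5 of the 11 members (Il4ra, Il17f, Il13, Il1rl1 and Il23r), added 4 (Il6st, Il18, Il17rb and Il31) and lost 6 (Il12rb2, Il1f5, Il22, Il20, Il2ra and the probe set of Il4i1 and Nup62, the only lower member above background). Centring on the median of all probe sets lost 3 (Il20, Il22 and Il2ra) and added 2 (Il6st and Il17rb). The other alternatives left the counts within 1.5 times of those reported, and the number of members above background ran from 18 to 33 over the limits tried. The share of all probe sets above these other limits was not computed, so these counts cannot be set beside it. The median receptor level in SAMP8 exceeded the median ligand level by 1.17, and this turned to -1.09 among the members above background in at least 1 group, a set of 18 receptors and 6 ligands. No paired analysis was possible because the tables hold group averages without values per replicate, and for the same reason no replicate could be left out.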

Other observations

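Several members lie beside each other in the genome (GRCm38), a pattern looked up after the values were seen. Il12rb2 and Il23r are neighbours on chromosome 6, from 67285986 to 67376293 and from 67422932 to 67491855, and both had lower averages in SAMP8 than in SAMR1, with log2 differences of -0.71 and -0.86. On chromosome 1 the receptors of the interleukin 1 family follow each other. From Il1r2 at 40084692 over Il1r1, Il1rl2, Il1rl1 and Il18r1 to Il18rap, which ends at 40551707, the differences between SAMP8 and SAMR1 were 0.11, 0.41, -0.46, -1.13, -0.07 and 0.16. Il1r1 alone of these 6 was above background. Sequence differences between the strains under the probes were not examined.

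Marker lists of other tissues gave these values. The 6 oligodendrocyte markers were above background in all groups, 4 of them lower in SAMP8 than in SAMR1, and 5 higher with TG. Of 8 meningeal markers, 5 were lower in SAMP8, and 4 were higher and 4 lower with TG. In TG-treated SAMP8 against SAMR1 3 meningeal markers were higher and 5 lower, and Dcn was furthest apart with a difference of -1.28. Among 6 choroid plexus markers 3 were higher and 3 lower both in SAMP8 against SAMR1 and with TG, and 2 were higher and 4 lower in TG-treated SAMP8 against SAMR1. Their summed linear signal was 576, 903 and 1269 in SAMR1, SAMP8 and TG-treated SAMP8. Ttr made up most of this sum, at 8.45, 9.33 and 10.05, and no other marker of the list rose in this order. Of the 6 markers of neutrophils and mast cells, 5 were below background in every group.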
